A study of Mus musculus with 7 samples.

Results

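The microRNAs mmu-miR-451, mmu-miR-144 and mmu-miR-486, written below as miR-451, miR-144 and miR-486, are microRNAs of the red blood lineage, measured here in whole kidneys. They were chosen by name, as the 3 mouse microRNAs of the arrays that carry these names, out of 611 mouse microRNAs on the array and 213 tested. No other arm of their precursors was on the array. Levels were read in whole kidneys of male mice on 1-colour Agilent microRNA arrays, 1 array per mouse, from 100 ng of total RNA. The comparison was between 4 wild-type mice (mgb+/+, kidneys described as normal) and 3 megabladder mice (mgb-/-, kidneys described as obstructed). All mice were labelled as 4 weeks old, and the extraction protocol gives 3.5 to 4 weeks. Megabladder mouse 1 was not analysed here. Mice of the megabladder line form a bladder with too little smooth muscle, which blocks the outflow of urine and dilates the kidney. The strain, and whether blood was flushed from the kidneys before freezing, are not given in the sources used here.

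As background, red cell precursors switch on miR-144 and miR-451 together from 1 primary transcript under the transcription factor GATA1. miR-451 is unusual among microRNAs because its short hairpin skips Dicer and is cut by Argonaute 2. It restrains 14-3-3 zeta signalling in erythroblasts, while miR-144 represses the antioxidant regulator Nrf2. miR-486 lies in the gene for erythrocyte ankyrin, Ank1, and is also made in striated muscle. All 3 stay in the circulating red cell after its nucleus is lost, so red cells left in an organ carry them into its RNA.

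The sequences are shown because miR-451 and miR-144 come from neighbouring precursors and yet are unlike each other. Sequences are from RefSeq on GRCm38.p6, where 2 of the 3 members matched by name, and miR-486 is named only. The array was designed on mm9, so these positions are those of the later build. The mature strands follow, with the seed (bases 2 to 8, which sets the targets) in capitals.
miR-451a: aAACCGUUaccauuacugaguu
miR-144-3p: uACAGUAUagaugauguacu
miR-144-5p: gGAUAUCAucauauacuguaagu
The array gives miR-144 without an arm, so both arms are shown. In older naming the plain name miR-144 stood for the 3' arm. The seeds of the 3 strands differ from each other, and no other mouse entry of the table has the same seed as any of them. Only over bases 2 to 7 did 1 other microRNA match, miR-101a-3p with miR-144-3p.

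The precursors are shown next with the mature strands in capitals.
Mir144: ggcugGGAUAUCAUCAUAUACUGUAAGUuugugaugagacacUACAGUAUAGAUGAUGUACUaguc
Mir451a: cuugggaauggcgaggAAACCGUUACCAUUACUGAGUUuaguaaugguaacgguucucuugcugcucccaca
Mir144 lies at chr11:78073005-78073070 and Mir451a at chr11:78073170-78073241, both on the plus strand, with 99 bases between them. The mature miR-451a takes bases 17 to 38 of its 72-base hairpin and so runs into the loop. Mir451b is annotated on the opposite strand at the same bases as Mir451a. Mir486 lies within Ank1 on chromosome 8, and Mir3107 is annotated inside its bases.

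Every probe of the members was well above background on all 7 arrays. Each microRNA had 2 probes with 7 to 10 usable spots per array. The spread between spots (coefficient of variation) was 0.878% to 6.18% for miR-451, 2.96% to 6.43% for miR-144 and 3.86% to 10% for miR-486. Before scaling, probe signals after background subtraction were 1155 to 4457 scanner units for miR-451, 33.4 to 105 for miR-144 and 17.9 to 64.3 for miR-486. At its lowest, this signal was 50.2 times the local background for miR-451, 1.4 times for miR-144 and 0.783 times for miR-486. The probes of miR-144 and miR-486 were thus dim. Brightness of different probes gives no order of abundance. The 2 probes of a microRNA moved together, since their difference varied over arrays with an SD of only 0.03 log2 units for miR-451, 0.02 for miR-144 and 0.06 for miR-486. The levels themselves varied with SDs of 0.30, 0.43 and 0.42, which is more than the disagreement between probes. Both probes share an array and its scaling factor, so their difference leaves out error between arrays. With 1 array per mouse, that error cannot be told apart from the differences between mice described next.

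All arrays lay on 1 slide, and each genotype filled its own slide row, so the row cannot be told apart from the genotype. Between 190 and 210 mouse microRNAs were above background on each array. The scaling factor of an array is its 75th percentile over the probes seen on every array. It ranged from 348.1 to 495.8 units for wild-type kidneys and from 223.5 to 333.4 for megabladder kidneys, with megabladder mouse 4 at the bottom. The difference in its log2, megabladder minus wild-type, was -0.61 (2-sided exact permutation p = 0.0286, with 35 splits and none that gives a smaller p). Because levels were divided by this factor, the main results are given with and without it. All 11 listed microRNAs of the kidney tubule were well above background on all 7 arrays.

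miR-451, the member that skips Dicer, stood at 11.22, 10.99, 11.27 and 11.40 log2 units in wild-type mice 1, 2, 3 and 4. In megabladder mice 2, 3 and 4 it stood at 10.87, 11.13 and 11.79. The lowest and the highest value of all 7 thus both came from megabladder kidneys, and the wild-type values lay between them. The fold between the highest and the lowest mouse was 1.89. Without scaling the picture changed, with 11.39, 11.34, 11.79 and 11.40 in wild-type and 10.51, 11.08 and 11.16 in megabladder mice. There, every megabladder value lay below every wild-type value, as the groups also did not overlap for 42.3% of tested microRNAs without scaling.

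miR-144, the partner of miR-451 on the same transcript, stood at 6.44, 6.01, 5.92 and 6.21 in wild-type mice 1, 2, 3 and 4. The megabladder values were 5.53, 6.33 and 6.91 in mice 2, 3 and 4. Again megabladder mouse 2 was the lowest and mouse 4 the highest, 2.59-fold apart. Without scaling, miR-144 was at 6.61, 6.36, 6.44 and 6.22 in wild-type and at 5.17, 6.28 and 6.27 in megabladder mice. Megabladder mouse 2 stayed the lowest, and mouse 4 fell inside the range of the wild-type mice.

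miR-486, from the Ank1 gene, stood at 5.19, 4.91, 5.08 and 5.35 in wild-type mice 1, 2, 3 and 4 and at 4.98, 5.21 and 6.16 in megabladder mice 2, 3 and 4. Megabladder mouse 4 stood apart above the others, at 1.18 log2 units over mouse 2 and 0.94 over mouse 3. Wild-type mouse 2, the lowest, lay just under megabladder mouse 2. Unscaled values were 5.37, 5.25, 5.60 and 5.36 in wild-type and 4.62, 5.16 and 5.53 in megabladder mice. Megabladder mouse 2 was then the lowest and wild-type mouse 3 the highest.

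**Figure D1:**
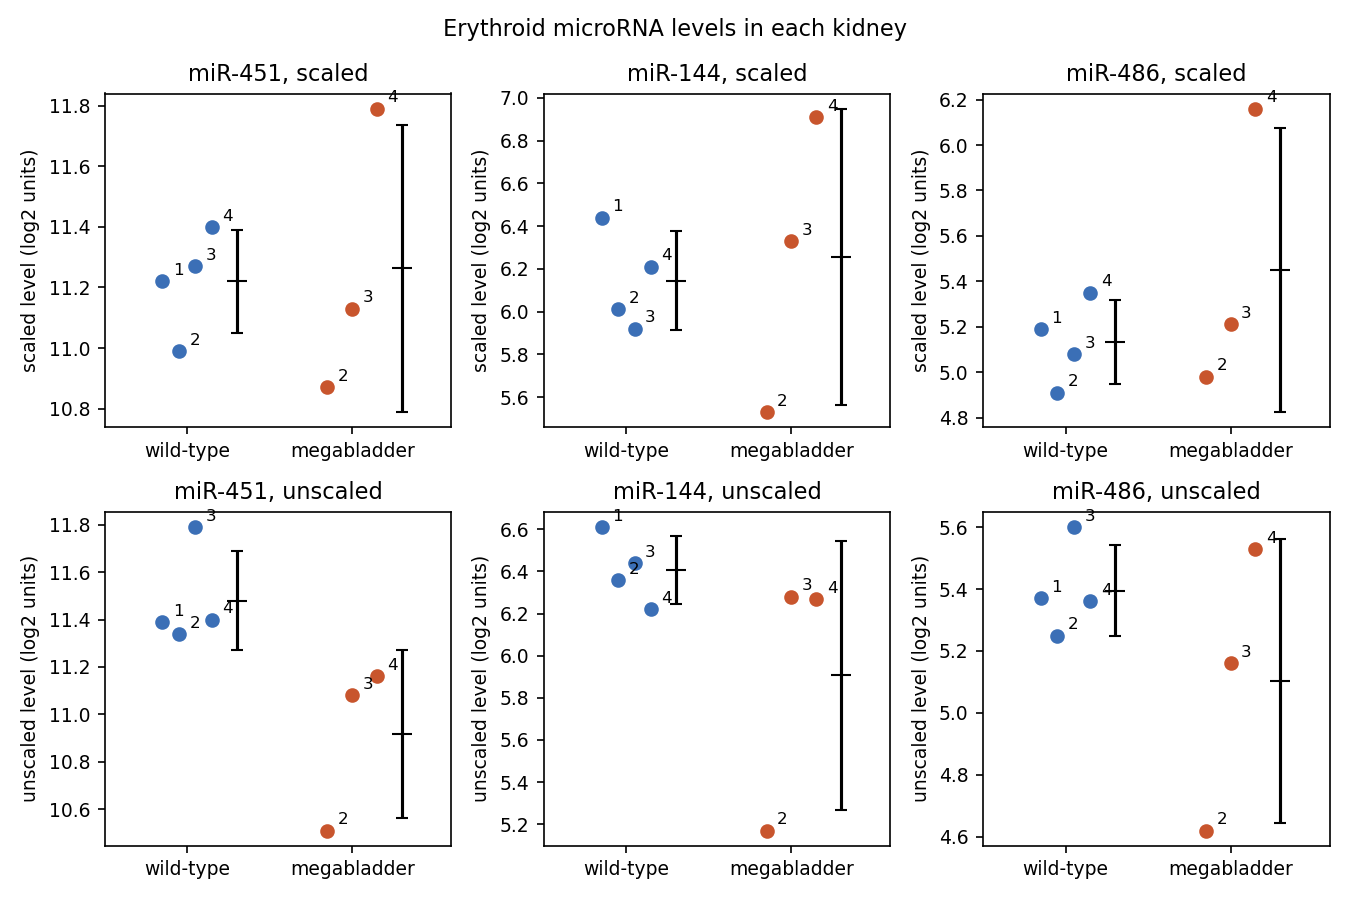
Levels (log2 scanner units) of miR-451, miR-144 and miR-486 in each kidney, with scaling to the 75th percentile of detected probes (top) and without scaling (bottom). Each point is 1 mouse with its number, and bars to the right show the mean and SD of 4 wild-type and 3 megabladder mice; with scaling megabladder mouse 4 is the highest point in each panel, and without scaling it is not.

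None of the 3 members passed the test between genotypes, where 3.29% of all 213 tested microRNAs passed (Benjamini-Hochberg adjusted p under 0.05 in limma). By direction, 2.82% of tested microRNAs passed as higher and 0.469% as lower in megabladder kidneys. None of the 3 members had an unadjusted p under 0.05 either, against 23.0% of those tested. For each member the groups overlapped, while 22.1% of tested microRNAs had groups that did not. miR-451 averaged 11.22 ± 0.17 (SD, n = 4) over the wild-type kidneys. Its megabladder mean was 11.26 ± 0.47 (SD, n = 3). The difference, megabladder minus wild-type, was 0.04 log2 units (1.03-fold), with a 95% interval of -0.47 to 0.56 (adjusted p = 0.932 in limma). For miR-144 the means were 6.15 ± 0.23 and 6.26 ± 0.69, a difference of 0.11 (1.08-fold; interval -0.61 to 0.84; adjusted p = 0.906 in limma). For miR-486 they were 5.13 ± 0.19 and 5.45 ± 0.62, a difference of 0.32 (1.25-fold; interval -0.34 to 0.97; adjusted p = 0.605 in limma). As folds the intervals ran from 0.72 to 1.48, from 0.653 to 1.79 and from 0.792 to 1.96. Exact permutation of the genotypes (2-sided, 35 splits) gave p = 0.914 for miR-451, p = 0.8 for miR-144 and p = 0.457 for miR-486. The median difference of the members was 0.11, beside 0.09 over all tested microRNAs.

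The signs of these differences rested on megabladder mouse 4 and on the scaling. Without megabladder mouse 4 the differences were -0.22 for miR-451, -0.21 for miR-144 and -0.04 for miR-486. Without megabladder mouse 2 they were 0.24, 0.47 and 0.55, and without wild-type mouse 2 that of miR-451 was -0.03. Unscaled, they were -0.57, -0.50 and -0.29, and scaled by all probes -0.70, -0.63 and -0.42. miR-451 came closest to the threshold without scaling, at an adjusted p of 0.0690 in limma. Those scalings lowered the median of all tested microRNAs too, to -0.50 and -0.62. Relative to that median, miR-451 was at -0.07 both unscaled and by all probes, and at -0.04 with the reported scaling. miR-144 was likewise within 0.03 of the median in these 3 scalings, and miR-486 was 0.20 to 0.23 above it. A single factor per array moves all microRNAs alike, so these relative values differ little by construction. By quantiles, where the median of all tested was -0.14, the relative values were 0.15 for miR-451, -0.05 for miR-144 and 0.08 for miR-486. With normexp, where it was 0.42, they were -0.50, -0.14 and 0.02. In a bulk kidney, a change in the number of red cells and a change in microRNA per red cell cannot be told apart.

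**Figure D2:**
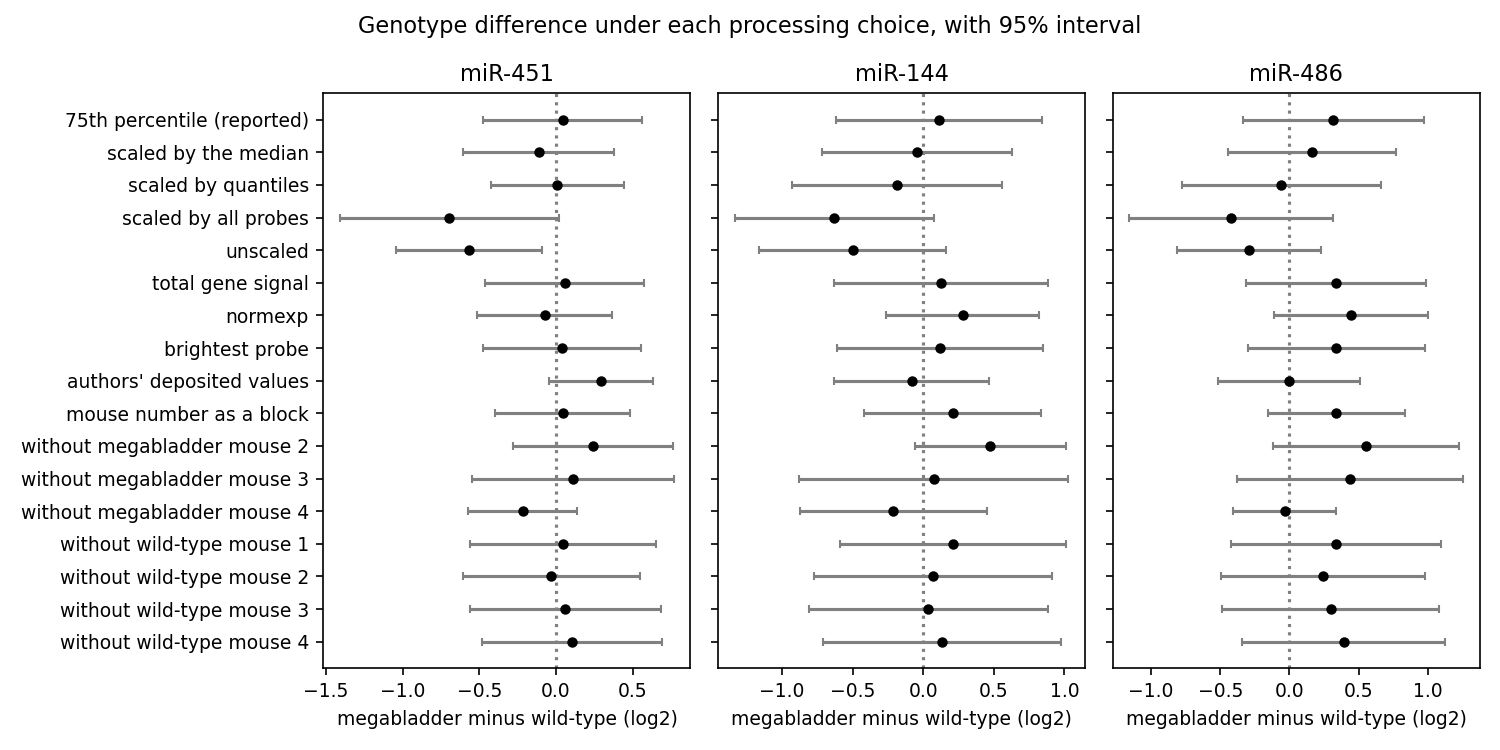
Difference in level, megabladder minus wild-type (log2), for each member under 17 ways of processing; points are limma estimates and bars their 95% intervals. The estimates of miR-451 run from -0.70 to 0.30 and all but the unscaled interval include 0.

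The spread of the members was wider among megabladder mice. The SD over the 3 megabladder mice was 0.47 for miR-451, 0.69 for miR-144 and 0.62 for miR-486, against 0.17, 0.23 and 0.19 over the 4 wild-type mice. The median SD of all tested microRNAs was 0.20 in megabladder and 0.14 in wild-type mice. Among megabladder mice 90.1%, 97.7% and 95.3% of tested microRNAs had a lower SD than the respective member. Among wild-type mice 55.4%, 71.4% and 61.5% did. The spread was not tested between genotypes, since 3 values give little hold on an SD. Megabladder mouse 4 was above megabladder mouse 2 by 1.89-fold for miR-451, 2.59-fold for miR-144 and 2.26-fold for miR-486. Unscaled, the same gaps were 0.65, 1.10 and 0.91 log2 units, so each member was higher in mouse 4 than in mouse 2 on both scales. These mice were picked as the lowest and highest for miR-451 and miR-144, so wide gaps in the members are partly built in. The gap over all tested microRNAs is not given.

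The members were next compared with each other over the 7 kidneys, the question being whether they covary in the way that differing blood content would make them. miR-451 and miR-486, which are made from different chromosomes, had the closest relation. Pearson's r was 0.929 (2-sided exact permutation p = 0.00357, adjusted over the 3 pairs 0.0107). Spearman's rho was 0.821 (exact permutation p = 0.0341, adjusted 0.0994). For miR-144 and miR-486, r was 0.838 (exact permutation p = 0.0145, adjusted 0.0217) and rho 0.75 (exact permutation p = 0.0663, adjusted 0.0994). For miR-451 and miR-144, which share a transcript, r was 0.837 (exact permutation p = 0.0252, adjusted 0.0252) and rho 0.607 (exact permutation p = 0.167, adjusted 0.167). All 3 Pearson values passed after adjustment, and none of the rank correlations did. Other scalings changed the ranks. The rank correlation for miR-451 with miR-144, miR-451 with miR-486 and miR-144 with miR-486 was 0.955, 0.865 and 0.893 by quantiles (adjusted exact permutation p = 0.00952, 0.0167 and 0.0167). Scaled by the median it was 0.821, 0.893 and 0.786 (adjusted exact permutation p = 0.048, 0.0369 and 0.048). Every pair also passed when scaled by the 75th percentile of all probes, of which only 19% to 21.8% were detected per array. That percentile lies near undetected signal, and dividing by it moves all microRNAs of an array alike. No share over all pairs is given for it, so no conclusion is drawn from those passes. Unscaled, the rank correlation was 0.536, 0.75 and 0.536, and none passed (adjusted exact permutation p = 0.236, 0.199 and 0.236). With the total gene signal none passed either (adjusted exact permutation p = 0.167, 0.0714 and 0.072). Sharing a transcript did not give the highest r among the 3 pairs, and the difference between the r values was not tested.

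These relations rested largely on megabladder mice 2 and 4, which were the 2 arrays farthest from the median of miR-451 and of miR-144. Without both, r over the other 5 kidneys was 0.122 for miR-451 with miR-144, 0.809 for miR-451 with miR-486 and 0.599 for miR-144 with miR-486. None of those passed, with exact permutation p = 0.842, 0.0917 and 0.3. Without megabladder mouse 4 alone, r was 0.619, 0.817 and 0.658 in the same order, with adjusted exact permutation p = 0.185, 0.146 and 0.185. Without megabladder mouse 2, miR-451 with miR-144 also missed, at r = 0.761 (adjusted exact permutation p = 0.0889). Without wild-type mouse 3, miR-144 with miR-486 missed, at r = 0.832 (adjusted exact permutation p = 0.0556). Each genotype holds 4 or 3 mice, too few for a correlation within it. With the genotype means taken out, r was 0.837, 0.983 and 0.864. Under the normexp background correction, r for the pairs with miR-451 was 0.512 (miR-144) and 0.366 (miR-486), and neither passed (adjusted exact permutation p = 0.379 and 0.477). For miR-451 with miR-486, rho was then -0.143. Normexp adds an offset of 50 units, beside probe signals of 17.9 to 64.3 for miR-486 and 33.4 to 105 for miR-144. With it, miR-486 had r = 0.988 with miR-30c-1* and 0.986 with miR-188-5p, both at or near the floor in the reported levels. The part of the offset in the normexp correlations was not tested. In the authors' deposited values none of the 3 pairs passed, with r = 0.648, 0.455 and 0.732 (adjusted exact permutation p = 0.157, 0.31 and 0.154).

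Within the wild-type kidneys the order of the members was only partly shared. From low to high, miR-451 ran through mice 2, 1, 3 and 4 and miR-486 through mice 2, 3, 1 and 4, so both had mouse 2 lowest and mouse 4 highest. miR-144 had mouse 3 lowest and mouse 1 highest. Megabladder mice kept 1 order, 2 below 3 below 4, in all 3 members with the reported scaling. It did not hold throughout, as unscaled miR-144 was at 6.28 in mouse 3 and 6.27 in mouse 4. With normexp, miR-486 was at 6.76 in mouse 2 and 6.72 in mouse 3. How many tested microRNAs share the order is not given.

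**Figure D3:**
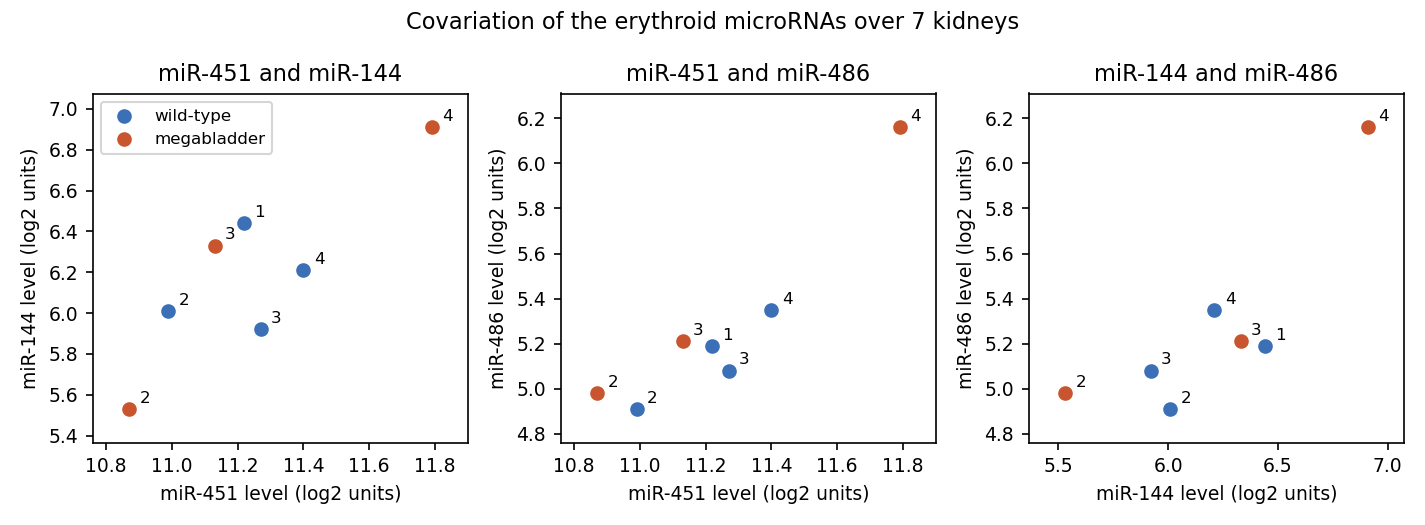
Levels (log2 scanner units) of each pair of members over 7 kidneys, with the mouse number beside each point. Megabladder mouse 4 lies at the upper right of all 3 panels, and the other 6 kidneys form a looser group.

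Correlations of this size were not rare on these arrays. Over all 22578 pairs of tested microRNAs the median r was 0.116, with the 5th percentile at -0.788 and the 95th at 0.866. An r at least as high was reached by 2.30% of pairs for miR-451 with miR-486, 6.64% for miR-144 with miR-486 and 6.73% for miR-451 with miR-144. Without megabladder mouse 4 these shares were 10.2%, 20.4% and 22.8%. All pairs share the same arrays and the same scaling factors. Among all possible partners, members included, miR-486 ranked 1st for miR-144 and 2nd for miR-451, and miR-451 ranked 2nd for miR-144 and 3rd for miR-486. miR-144 ranked 5th for miR-451 and 6th for miR-486.

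The members' relation to array brightness was negative with scaling and positive without it, and none of 6 such relations passed. Dividing a level by the 75th percentile pulls r down, and a brighter array raises unscaled signals. These signs are thus partly built in and are not a trait of the members, and other microRNAs are not given beside them. With scaling, r between the level and the log2 75th percentile was -0.391 for miR-451, -0.363 for miR-144 and -0.687 for miR-486 (exact permutation p = 0.392, 0.431 and 0.0798, adjusted 0.468, 0.468 and 0.239). The rank correlations were -0.107, -0.357 and -0.536 (exact permutation p = 0.840, 0.444 and 0.236, adjusted 0.840, 0.533 and 0.471). Without megabladder mouse 4 and wild-type mouse 3, the farthest arrays, r was 0.295, 0.588 and -0.0737, so the sign for miR-451 and miR-144 rested on those arrays. Unscaled, r was 0.716, 0.513 and 0.341 (exact permutation p = 0.0690, 0.261 and 0.468, adjusted 0.239, 0.468 and 0.468). Their rank correlations were 0.75, 0.714 and 0.357 (exact permutation p = 0.0663, 0.0881 and 0.444, adjusted 0.264, 0.264 and 0.533). Without the same arrays, r was 0.860, 0.855 and 0.812.

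**Figure D4:**
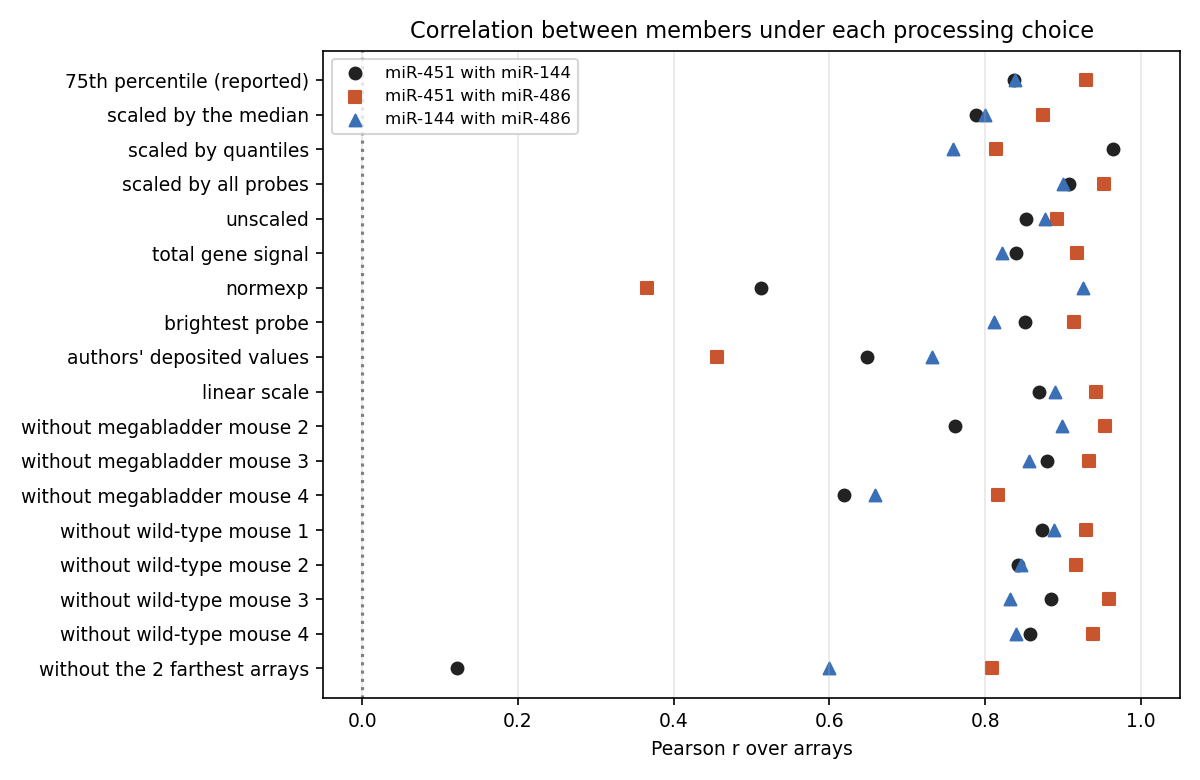
Pearson r over arrays for the 3 pairs of members under 18 ways of processing, with the removal of genotype means not plotted and 7 arrays in the upper entries, 6 where 1 mouse is left out and 5 in the last. The plotted values lie between 0.122 and 0.964, and the lowest ones come from normexp, the authors' deposited values and leaving out the 2 farthest arrays.

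Outside the members, the microRNAs most like miR-451 over the 7 kidneys were miR-30c-1* (r = 0.958), the passenger strand of a tubule microRNA, miR-320 (r = 0.863) and miR-142-3p (r = 0.848). miR-142-3p is made by blood cells of nearly all lineages and was the 1 leukocyte marker among them. It stood at 6.35, 6.11, 6.51 and 6.58 in wild-type and at 6.07, 6.03 and 6.62 in megabladder mice, and its r with miR-451 was 0.861 without megabladder mouse 4. miR-30c-1* and miR-320 covered only 0.24 and 0.34 log2 units over the arrays, and miR-30c-1* was within 0.24 of the floor of 3.51. For miR-144 the most like were miR-320 (0.731), miR-188-5p (0.724) and miR-30c-1* (0.711). For miR-486 they were miR-30c-1* (0.936), miR-188-5p (0.934) and miR-320 (0.903). miR-188-5p was at the floor on 6 arrays and at 3.93 in megabladder mouse 4, so its likeness rests on that mouse alone, as r is undefined without it. Without megabladder mouse 4, r of miR-320 was 0.511 with miR-451, 0.194 with miR-144 and 0.0927 with miR-486. That of miR-30c-1* was 0.885, 0.213 and 0.645 in the same order.

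MicroRNAs abundant in red cells but shared with other cells gave a mixed picture. Of 7 listed, 6 were tested, and none passed or had an unadjusted p under 0.05, with 4 positive and 2 negative differences and a median of 0.14 beside 0.09 over all tested. miR-16, which restrains cyclins, differed by -0.04 between genotypes, miR-92a by 0.13 and miR-106b by 0.21. Megabladder mouse 4 was above mouse 2 by 0.17 for miR-16 and 0.40 for miR-106b, while miR-92a was at 7.21 in mouse 2 and 7.12 in mouse 4. The summed level of the 6 was 1100 to 1210 units in wild-type and 1190, 1010 and 1390 units in megabladder mice 2, 3 and 4. The sum of the 3 members was 2130 to 2810 units in wild-type and 1950, 2360 and 3720 units in the same megabladder mice. It mostly follows miR-451, which alone gave 3530 units in megabladder mouse 4. Mouse 4 was thus the highest in both sums, while the lowest was mouse 2 for the members and mouse 3 for the shared list.

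Regulators of red cell maturation did not pass in any of 6 tested of 7 listed, nor at an unadjusted p under 0.05, with a median difference of 0.08. miR-221, a repressor of the stem cell factor receptor Kit, differed by -0.09 (interval -0.52 to 0.34). miR-24, which acts on activin signalling, differed by 0.11 (interval -0.08 to 0.30) and miR-181a by 0.20 (interval -0.33 to 0.74). miR-191 did not reach the background criterion in any kidney.

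Markers of white cells and platelets were read for the other cells of blood. Of 7 leukocyte microRNAs 5 were tested, and none passed or had an unadjusted p under 0.05, with 2 positive and 3 negative differences and a median of -0.15. Differences were -0.15 for miR-142-3p, 0.04 for the myeloid miR-223, 0.28 for miR-342-3p and -0.47 for miR-155. The summed level was 213 to 241 units in wild-type and 211, 210 and 254 units in megabladder mice 2, 3 and 4. Megabladder mouse 4 was above mouse 2 by 0.55 for miR-142-3p and 0.10 for miR-223. The 0.92 to 1.37 of the members is no fair measure beside them, as these mice were picked by the members' values. miR-150 of lymphocytes was above background on 1 array and miR-142-5p on 2, so neither was tested. miR-126-3p and miR-126-5p, carried by endothelium and platelets, differed by -0.06 and -0.23, and neither passed in limma or had an unadjusted p under 0.05. Their part in the members' values was not tested.

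For striated muscle, the other known source of miR-486, none of 7 microRNAs was detected on enough arrays to be tested. miR-133a, miR-206, miR-208a, miR-208b and miR-499 were not well above background on any array, and miR-1 and miR-133b were above it on 2 arrays each. In megabladder mouse 2, miR-1 stood at 3.68 and miR-133b at 3.78, and in all other kidneys the 7 were at the floor of 3.51. Their part in the level of miR-486 was not tested.

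Of the kidney tubule microRNAs, none of 11 passed, 1 had an unadjusted p under 0.05 (miR-30d, 0.26, adjusted p = 0.214 in limma), and the median difference was -0.02. miR-30a, which is abundant in kidney epithelium, had an SD over all arrays of 0.07, miR-30c 0.09 and miR-192, of the proximal tubule, 0.28. miR-204 had 0.49, the highest of the list, beside 0.30 to 0.43 for the members. Between megabladder mice 2 and 4, mouse 4 minus mouse 2, the 11 differed by -0.30 (miR-200c) to 0.20 (miR-194). The gap was -0.25 for miR-30c and -0.02 for miR-30a. The members had 0.92 to 1.37, but these mice were picked by the members' values, so the 2 ranges are not compared. In megabladder mouse 3, miR-192 was at 9.5 against 10.07 to 10.35 elsewhere, whereas miR-451 in that mouse lay inside the wild-type range.

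**Figure D5:**
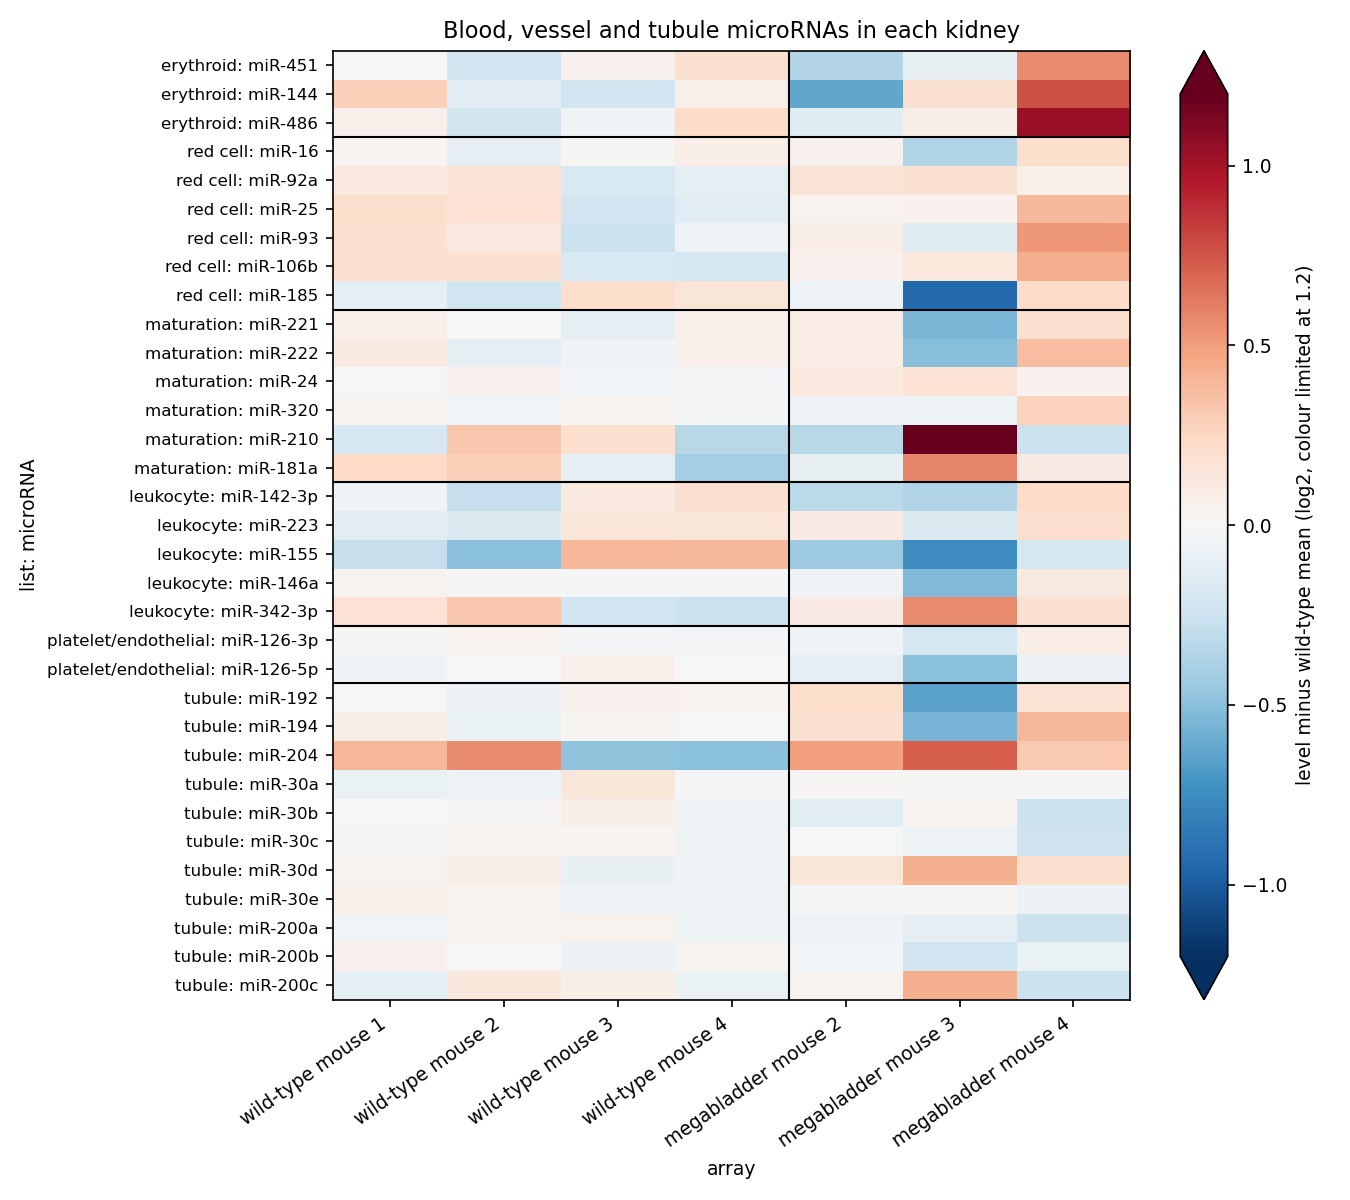
Level of each tested microRNA of the marker lists minus its wild-type mean (log2, colour) in each kidney, with 4 wild-type columns and 3 megabladder columns. Megabladder mouse 4 is higher than the wild-type mean for all 3 erythroid members (0.57, 0.76 and 1.02), and megabladder mouse 2 is lower (-0.35, -0.61 and -0.15).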

How the data were processed

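Per the file headers, the authors read each spot's intensity from the scan with Agilent's Feature Extraction software, version 10.7.3.1. These signals are background-subtracted and were not scaled between arrays. A second set of deposited intensity values comes from the authors' table, whose scaling the sources used here do not give. It served as an alternative for 190 tested microRNAs before the point in name order where its rows stop matching the scanner signal.

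Control spots and outlier spots (3.45% to 3.77%) were left out. Signals were averaged per probe, scaled to the 75th percentile of the 292 probes detected on all arrays, floored at 11.4 units and put on a log2 scale. A probe was detected where at least 0.5 of its spots were well above background. A microRNA's level is the mean over probes detected on at least 3 arrays. Genotypes were compared over 213 microRNAs with lmFit and eBayes of limma 3.58.1 (R 4.3.3), with Benjamini-Hochberg adjustment. Correlations used exact permutation over all pairings (5040 for 7 arrays). Both were tested on simulated data. The number of arrays limits the precision. Named microRNAs are the members, the 3 most correlated others of each, and up to 3 of each list by mean level and 2 by p. Others were named after their values were seen: miR-150, miR-142-5p, miR-191, miR-210, miR-185, miR-194, miR-200a, miR-200c and the muscle microRNAs. The members and lists were chosen with earlier results of these data known. Normexp (offset 50) used the median spot signal because the files hold no mean. Alternatives covered scaling, signal, background, probes, floor, filter, the mouse number as a block and single arrays.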

Additional observations from a re-analysis of the deposited data

How the results depend on the processing

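No member passed between genotypes under any of 20 alternatives each, where adjusted p in limma, or p by exact permutation, ran from 0.0690 to 0.974 for miR-451, 0.123 to 0.967 for miR-144 and 0.193 to 0.995 for miR-486. The sign was not stable. The difference of miR-451 was -0.07 with normexp, -0.70 scaled by all probes, -0.11 by the median and -0.57 unscaled. That of miR-144 was -0.63, -0.05 and -0.50 in the last 3 of these, -0.18 by quantiles and -0.08 in the authors' deposited values. miR-486 had -0.42 by all probes, -0.29 unscaled, -0.06 by quantiles and -0.00174 in the authors' deposited values. Leaving out 1 mouse gave -0.22 to 0.24 for miR-451, -0.21 to 0.47 for miR-144 and -0.04 to 0.55 for miR-486.

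All Pearson correlations stayed positive. miR-451 with miR-144 missed the threshold with normexp (0.512) and in the authors' deposited values (0.648), and miR-451 with miR-486 did so at 0.366 and 0.455. miR-144 with miR-486 missed it with normexp (0.926), in the authors' deposited values (0.732) and unscaled (0.877). The same pairs had 0.122, 0.809 and 0.599 without the 2 farthest arrays. Leaving out 1 mouse gave 0.619 to 0.885, 0.817 to 0.959 and 0.658 to 0.899. In the authors' deposited table, the same value stands on 4 arrays for miR-451 (2881), which limits any correlation there. The causes of the other changes were not tested.

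The count of 7 called microRNAs was 69 unscaled, 2 scaled by the median, 4 among those detected on all arrays and 1 in the authors' deposited values. It was 0 by all probes, quantiles, total gene signal, normexp, a floor of 1 and no filter (limma; 26 to 107 at an unadjusted p under 0.05), and 0 to 19 without 1 mouse (0 without megabladder mouse 2 or wild-type mouse 1, 2 or 3, 1 without wild-type mouse 4, 19 when megabladder mouse 3 was left out and 6 when megabladder mouse 4 was). Mouse numbers, which are also slide columns, were not used to pair the samples in the reported test. Deviations of same-numbered mice correlated at -0.214, 0.00664 and 0.207, and so few arrays cannot show whether a column effect is absent. With the replicate block, which drops wild-type mouse 1, 28 microRNAs passed and no member did. Within columns 2, 3 and 4 miR-451 differed by -0.12, -0.14 and 0.39, miR-144 by -0.48, 0.41 and 0.70, and miR-486 by 0.07, 0.14 and 0.80.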

Other observations

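Megabladder mouse 3 stood apart in other listed microRNAs, picked here after their values were seen, and not in the members. miR-210, which low oxygen induces, was at 5.82 in that kidney and at 4.05 to 4.70 in the other 6. miR-185 was at 5.68 there and at 6.37 to 6.83 elsewhere. In the same kidney miR-451, miR-144 and miR-486 were at 11.13, 6.33 and 5.21, each within the range of the wild-type mice.

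Some tubule and epithelial microRNAs ran opposite to the members over the 7 kidneys, and were likewise picked after their values were seen. miR-30c, of a family abundant in tubule cells, stood at 9.70, 9.71, 9.71 and 9.63 in wild-type mice and at 9.69, 9.63 and 9.44 in megabladder mice 2, 3 and 4. Its r over the 7 arrays was -0.970 with miR-486, -0.839 with miR-451 and -0.782 with miR-144. miR-200a, which keeps epithelial identity, had -0.905, -0.708 and -0.756. Both were lowest in megabladder mouse 4, the mouse with the highest erythroid levels. In the other kidneys miR-30c kept to 9.63 to 9.71 and miR-200a to 8.95 to 9.11. These ranges are narrow, and r without megabladder mouse 4 is not given for either. miR-30a, of the same family as miR-30c, had -0.067, 0.0624 and -0.328, so the pattern did not extend to it. Across the 11 listed tubule microRNAs r took both signs, with miR-194 at 0.466, 0.432 and 0.133 in the same order. Over all pairs of tested microRNAs the 5th percentile of r was -0.788, which -0.782, -0.708 and -0.756 did not reach. The arrays share their scaling factors between all microRNAs, and no test was made.

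miR-142-3p, shared by blood lineages, correlated with miR-451 at 0.848, with miR-144 at 0.505 and with miR-486 at 0.646. The myeloid miR-223 had 0.551, 0.0281 and 0.508 in the same order. These are descriptions over 7 arrays.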
